A study of Danio rerio with 8 samples.

Results

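The 59 genes described here are Hox genes of zebrafish and some of the genes that make, remove or read retinoic acid. hoxa3a is not among them, and other retinoic acid genes are described from lists. They were chosen by symbol from the 31200 symbols of the deposited expression table. Of the 59, 48 are Hox genes and 11 belong to retinoic acid metabolism or signalling. They were measured in primordial germ cells (PGCs), the embryonic precursors of eggs and sperm, in a study of how GPI transamidase affects the migration of these cells.

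The mutant cells were from homozygous embryos (pigu-/-, genotype label pigu_homo) with a mutation in pigu, which codes for a subunit of GPI transamidase, and the others were from wild type embryos. The 4 groups were pigu mutant at bud, wild type at bud, pigu mutant at shield and wild type at shield, with 2 libraries each. Shield is an early gastrula stage and bud marks the end of gastrulation. All groups shared the labelling, an injected GFP mRNA with the nanos1 3′ UTR, and in each group the fluorescent cells of dissociated embryos were collected by hand. Cells of 1 genotype were pooled after typing the remaining somatic cells, and the pools were sequenced by SMART-seq2, which amplifies polyadenylated RNA from few cells. The labels name the Tuebingen and India strains and the line Tg(kop:EGFP-nanos 3′UTR). The pigu allele and the number of cells in a pool are not given in the sources used here. The replicates are called biological, but whether separate clutches were used is not stated, so the spread between them may be partly technical.

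Hox genes code for homeodomain transcription factors that give cells along the trunk and tail their position. They lie in clusters, and genes at one end of a cluster (low paralogue group numbers) are used further anterior, and in general earlier, than genes at the other end. Retinoic acid is made from retinal by Aldh1a enzymes in the trunk mesoderm, is broken down by Cyp26 enzymes, and acts through retinoic acid receptors on anterior Hox genes among others. The somatic cells of hindbrain, spinal cord, paraxial mesoderm and tailbud are among the known sites of Hox expression at the end of gastrulation.

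Libraries differed widely in coverage, and read depth is unknown because FPKM (fragments scaled by transcript length and by the number of mapped fragments) hold no counts. Genes detected, here FPKM of at least 1, numbered 6708 and 12037 in mutant bud, 11460 and 13007 in wild type bud, with 5878 and 12046 in mutant shield and 8338 and 12293 in wild type shield. pigu itself stood at FPKM of 0 and 7.32 in mutant bud, 2.78 and 14.6 in wild type bud, with 0.813 and 10.95 in mutant shield and 11.5 and 15.04 in wild type shield, so the groups overlapped at bud, while at shield both mutant values lay below both wild type values. The share of summed FPKM from mitochondrial entries ranged from 17.3% to 72.2%, highest in mutant shield replicate 1, the library with the fewest genes detected. The label of germ cell was checked with 12 marker genes. Their summed FPKM were 17881 and 3596 in mutant bud, 9462 and 16570 in wild type bud, with 4954 and 35389 in mutant shield and 6806 and 24230 in wild type shield. Mutant bud replicate 2 thus had the lowest germ cell sum of the 8 libraries, although its order against mutant shield replicate 1 rested on nanos3 (1518 against 2885). The part of the injected mRNA, with its nanos 3′ UTR, in the nanos3 values was not tested. Mutant bud replicate 2 stood apart in the Hox genes too. Values are therefore given for single libraries, replicate 1 before replicate 2, and with and without this library where it decides them. In pooled cells, fewer cells of a type and less RNA per cell cannot be told apart.

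Hox transcripts were concentrated in 1 library. Of the 48 Hox genes, 1 and 29 were detected in mutant bud, 9 and 11 in wild type bud, with 0 and 4 in mutant shield and 2 and 6 in wild type shield. Their summed FPKM were 1.93 and 489 in mutant bud, 38.2 and 42.1 in wild type bud, with 0 and 17.2 in mutant shield and 10.6 and 13.1 in wild type shield. The sum in mutant bud replicate 2 was 12.2 times the wild type bud mean of 40.2 ± 2.76 (SD, n = 2), while mutant bud replicate 1 lay below both wild type bud libraries. The 2 mutant pools of this stage thus bracketed the wild type pools, and no common direction of genotype can be read from the sums.

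**Figure D1:**
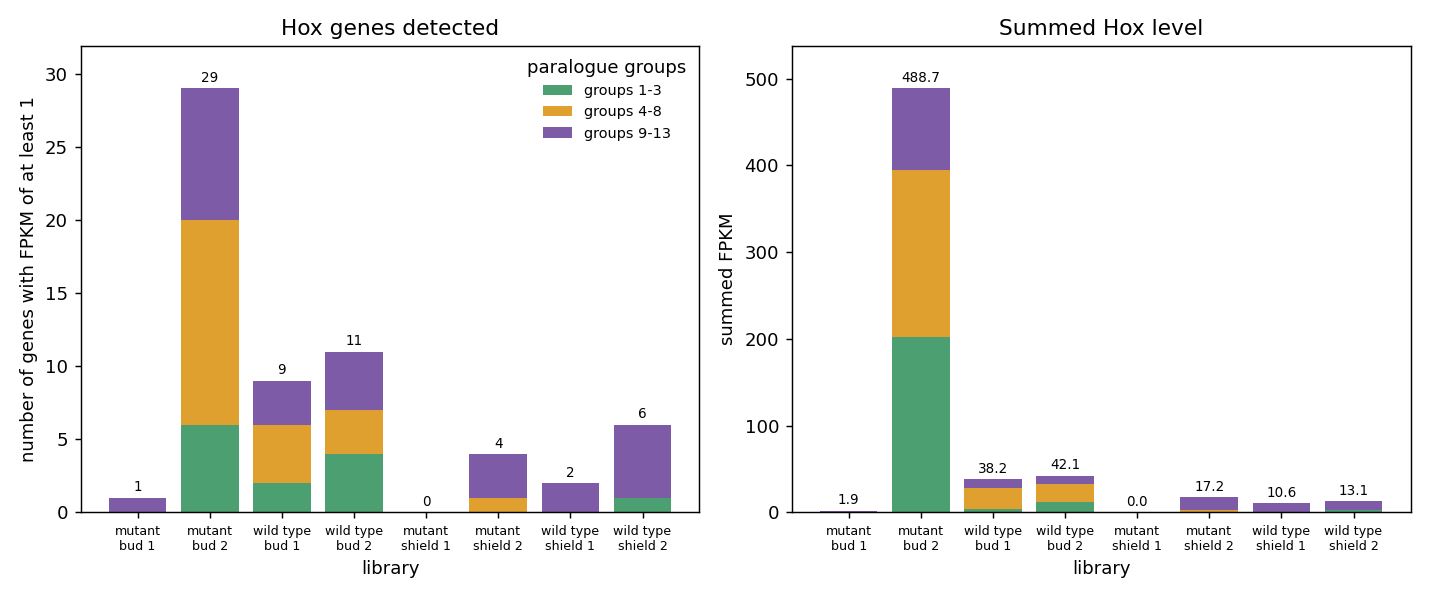
Number of Hox genes with FPKM of at least 1 (left) and their summed FPKM (right) in each of the 8 libraries, 1 stacked bar per library, coloured by paralogue groups 1 to 3, 4 to 8 and 9 to 13. Mutant bud replicate 2 holds 29 detected genes and a sum of 489, against 1 gene and a sum of 1.93 in mutant bud replicate 1.

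Over all libraries 34 of the 48 Hox genes were detected at least once. A further 5 (hoxc1a, hoxb2a, hoxb5b, hoxc11b and hoxc13a) had values above 0 but never reached FPKM of 1, and 9 were at 0 in all 8 libraries. These 9 were hoxa1a, hoxa5a, hoxa10b, hoxa11a, hoxa11b, hoxd11a, hoxc12a, hoxa13a and hoxc13b, of which 7 belong to paralogue groups 9 to 13. Among the 34 detected genes, 26 (76.5%) had their highest value in mutant bud replicate 2, against 19.6% of all 16601 genes detected in any library. For 12 (35.3%) it was the library that alone detected them, against 4.28% of all detected genes. Without it 22 Hox genes were detected.

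By cluster, the hoxba cluster had 10 of 11 members detected and the hoxca cluster 8 of 11. The hoxda cluster had 6 of 7, hoxbb 3 of 4, hoxab 3 of 5, hoxcb 2 of 4 and hoxaa 2 of 6. In mutant bud replicate 2 hoxca and hoxba members summed to 196 and 154 FPKM, which together made up most of the Hox level there. In wild type bud the sums were 14.4 and 15.3 for hoxca, and 7.21 and 19.8 for hoxba. Several neighbouring Hox genes overlap in the RefSeq annotation, in an assembly (GRCz12tu) other than that of the files. The hoxc3a unit overlaps 5 other members (hoxc9a, hoxc8a, hoxc6a, hoxc5a and hoxc4a), the hoxb3a unit 3 (hoxb6a, hoxb5a and hoxb4a), the hoxb1b unit hoxb6b and hoxb5b, and hoxd3a overlaps hoxd4a. How the authors' counting divided reads among them is not stated, so the division of a level between such neighbours is uncertain.

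**Figure D2:**
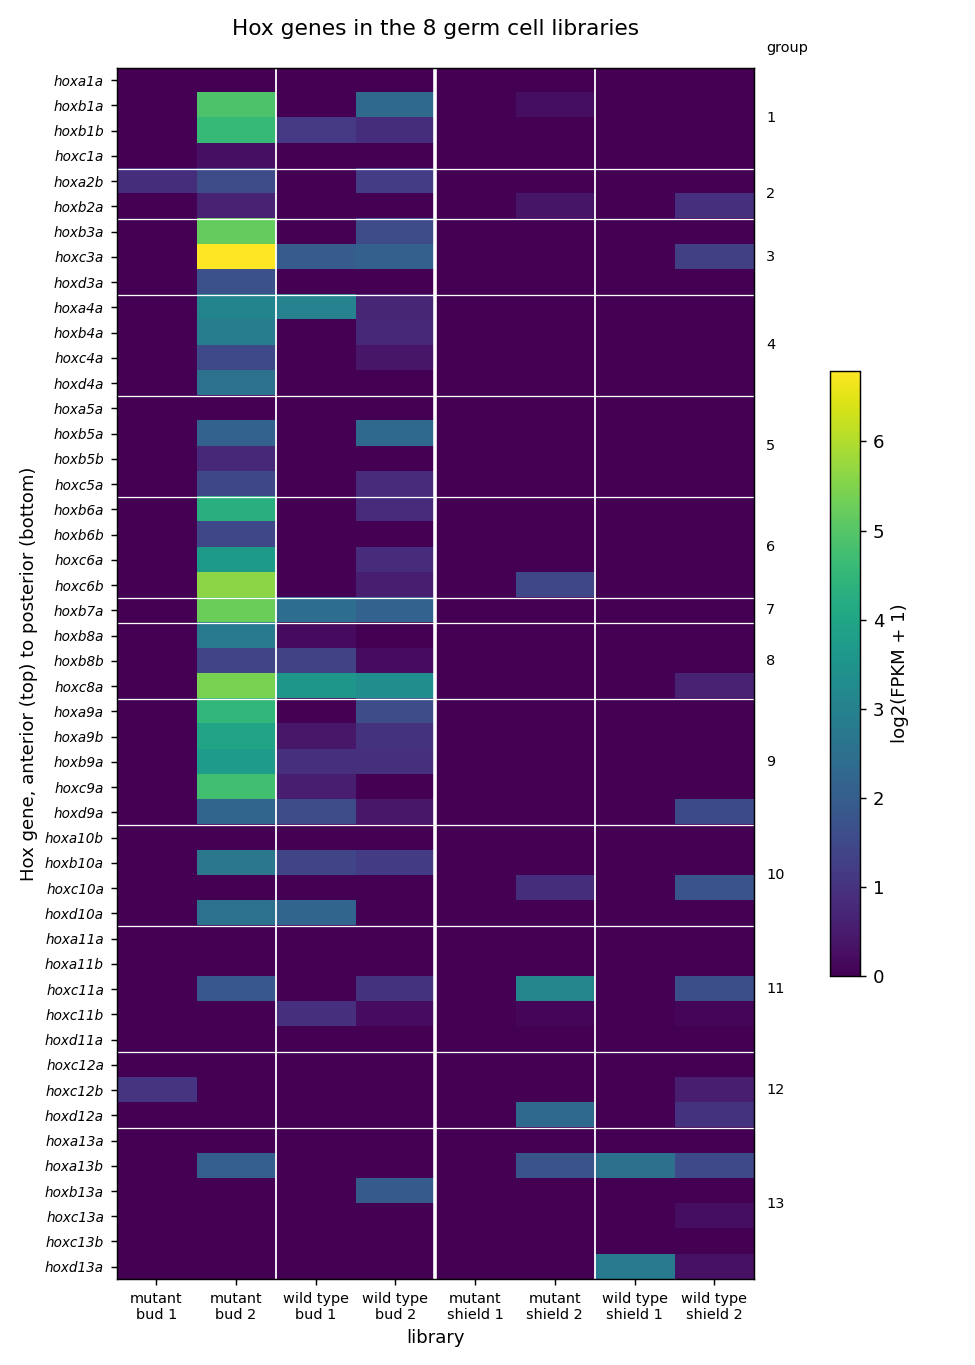
Level of the 48 Hox genes as log2(FPKM + 1), 1 row per gene from paralogue group 1 at the top to 13 at the bottom, 1 column per library, with white lines between paralogue groups. The column of mutant bud replicate 2 is filled through groups 1 to 10, wild type bud is thinly filled over the same range, and values at shield lie mostly in the lower rows.

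Anterior Hox genes, paralogue groups 1 to 3, pattern the hindbrain and its neural crest. Of their 9 members 6 were detected. hoxb1b, an early gene induced by retinoic acid that acts in hindbrain segmentation, stood at FPKM of 0 and 22.4 in mutant bud and 1.19 and 0.859 in wild type bud, and at 0 in the 4 shield libraries. hoxb1a, which marks the fourth hindbrain segment, stood at 0 and 28.9 in mutant bud and 0 and 4.09 in wild type bud, with 0 and 0.195 in mutant shield and 0 in both wild type shield libraries. For both genes mutant bud replicate 2 was above, and replicate 1 at or below, the wild type bud libraries.

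In paralogue group 3, which acts at the hindbrain to spinal cord transition, the level in mutant bud replicate 2 was carried by hoxc3a and hoxb3a. hoxc3a stood at 0 and 110.0 in mutant bud, 2.91 and 3.27 in wild type bud, 0 in both mutant shield libraries and 0 and 1.45 in wild type shield. hoxb3a stood at 0 and 35.3 in mutant bud and 0 and 1.91 in wild type bud, and at 0 in the 4 shield libraries. hoxc3a alone made 22.5% of the summed Hox FPKM of mutant bud replicate 2, and its wild type bud values, though low, were alike. hoxd3a was seen in mutant bud replicate 2 alone, at 2.23. Of group 2, hoxa2b, a regulator of the second pharyngeal arch, stood at 0.867 and 1.96 in mutant bud and 0 and 1.37 in wild type bud, and hoxb2a never passed 0.870.

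Middle Hox genes, paralogue groups 4 to 8, act in the trunk. Of 16 members 14 were detected, all of them in mutant bud replicate 2 and 0 in mutant bud replicate 1. hoxc8a, a thoracic gene, stood at 0 and 42.1 in mutant bud and 11.01 and 9.04 in wild type bud, with 0 in both mutant shield libraries and 0 and 0.586 in wild type shield. It was the highest Hox gene in each wild type bud library, where it made 28.8% and 21.5% of the Hox sum. hoxb7a stood at 0 and 37.6 in mutant bud and 4.46 and 3.37 in wild type bud, and at 0 in the 4 shield libraries. For these genes both wild type bud libraries lay between the mutant bud libraries and above all 4 shield libraries.

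Of group 6, 3 genes reached FPKM of 10, in mutant bud replicate 2, and were under 1 in all wild type libraries. hoxc6b stood at 0 and 47.7 in mutant bud, 0 and 0.499 in wild type bud, with 0 and 1.71 in mutant shield and 0 in both wild type shield libraries. hoxb6a stood at 0 and 18.5 in mutant bud and 0 and 0.738 in wild type bud. hoxc6a stood at 0 and 11.9 in mutant bud and 0 and 0.804 in wild type bud, and like hoxb6a it was at 0 in the 4 shield libraries. All 3 were thus high in the same single library. Group 4 genes were lower, from 1.80 for hoxc4a to 7.42 for hoxa4a in mutant bud replicate 2. hoxa4a reached nearly the same FPKM, 7.06, in wild type bud replicate 1, and 0.656 in replicate 2. hoxb5a was 3.41 in mutant bud replicate 2 and 3.99 in wild type bud replicate 2, and 0 elsewhere, so here the mutant library did not stand out. hoxc5a and hoxb6b reached 1.76 and 1.74 in mutant bud replicate 2 and were under 1 elsewhere. Of group 8, hoxb8a stood at 0 and 6.07 in mutant bud and 0.146 and 0 in wild type bud. hoxb8b stood at 0 and 1.67 in mutant bud and 1.53 and 0.169 in wild type bud.

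Posterior Hox genes, paralogue groups 9 to 13, act in the posterior trunk, tail and fins. Of 23 members 14 were detected, and the pattern split at group 10. All 5 group 9 genes were highest in mutant bud replicate 2. hoxc9a stood at 0 and 25.7 in mutant bud and 0.496 and 0 in wild type bud. hoxa9a stood at 0 and 21.5 in mutant bud and 0 and 2.02 in wild type bud. These and the next 2 genes were at 0 in the 4 shield libraries. hoxa9b stood at 0 and 14.5 in mutant bud and 0.353 and 0.977 in wild type bud, and hoxb9a at 0 and 12.3 in mutant bud and 0.907 and 0.894 in wild type bud. In wild type bud both genes stayed under the detection threshold in both libraries. hoxd9a was low throughout, at 0 and 3.67 in mutant bud, 1.91 and 0.359 in wild type bud, 0 in both mutant shield libraries and 0 and 1.88 in wild type shield. Of group 10, hoxb10a stood at 0 and 5.46 in mutant bud and 1.69 and 1.29 in wild type bud, and hoxd10a at 0 and 4.81 in mutant bud and 3.69 and 0 in wild type bud.

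The shares of the 3 stretches differed between the libraries. In mutant bud replicate 2 groups 1 to 3 took 41.2% of the Hox sum, groups 4 to 8 took 39.6% and groups 9 to 13 took 19.2%. In wild type bud the shares were 10.7% and 27.3% for groups 1 to 3, 63.3% and 50.1% for groups 4 to 8, and 26.0% and 22.6% for groups 9 to 13.

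At shield the few Hox values lay mostly at the posterior end. Groups 9 to 13 took 87.1% of the Hox sum in mutant shield replicate 2 and all of it (replicate 1) and 77.8% (replicate 2) in wild type shield, while mutant shield replicate 1 had no Hox value above 0. hoxa13b, a gene of the fin and tail end, was detected in 3 of the 4 shield libraries, with 0 and 2.37 in mutant shield and 4.66 and 1.81 in wild type shield. At bud it stood at 0 and 3.06 in mutant and at 0 in both wild type libraries. hoxc11a stood at 0 and 7.60 in mutant shield and 0 and 2.09 in wild type shield, with 0 and 2.56 in mutant bud and 0 and 1.01 in wild type bud. hoxd12a stood at 0 and 4.12 in mutant shield and 0 and 1.00 in wild type shield and was at 0 in the 4 bud libraries. These 3 genes of groups 11 to 13 thus had their highest value in a shield library and not in mutant bud replicate 2.

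The posterior genes hoxd12a, hoxc10a and hoxd13a were detected at shield and not at bud. hoxc10a stood at 0 and 0.848 in mutant shield and 0 and 2.39 in wild type shield. hoxd13a stood at 0 in both mutant shield libraries and 5.92 and 0.247 in wild type shield. Each was thus carried by 1 or 2 libraries. The last pair of detected posterior genes had a value of at least 1 in 1 library each, hoxb13a at 2.78 in wild type bud replicate 2 and hoxc12b at 1.06 in mutant bud replicate 1, the only Hox gene detected there.

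Tests across genes called no Hox or retinoic acid gene. Of the 59 members, 24 passed the filter of FPKM of at least 1 in 2 or more libraries, 18 Hox and 6 retinoic acid genes, and without mutant bud replicate 2 only 14 would pass. Comparisons used limma on log2(FPKM + 1), fitted to the 13984 genes past the filter, with a call at a Benjamini-Hochberg adjusted p under 0.05. For pigu mutant against wild type at bud 0 of 24 members were called, against a background of 0% of all tested genes. The same was true at shield, over both stages, for bud against shield in mutant, for bud against shield in wild type and for the interaction of genotype and stage, each with a background of 0%. At an unadjusted p under 0.05, 1 member passed for the stage in mutant (rarga), 1 for the stage in wild type (dhrs3b) and 0 in the other 4 comparisons. Over all tested genes these counts were 928 and 467 for the stage in mutant and wild type, and for genotype 677 at bud, 201 at shield and 597 over both stages, with 199 for the interaction. With 2 libraries against 2, an exact permutation test of a single value cannot go below p = 0.333 (two-sided).

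No fitted genotype difference of a Hox gene at bud was called. On the log2(FPKM + 1) scale, mutant minus wild type was 2.51 for hoxc6b (SE 1.38, limma adjusted p = 0.959), 1.82 for hoxb3a (SE 1.28), 1.37 for hoxc3a (SE 1.77), 1.28 for hoxb1a (SE 1.33), 0.35 for hoxb7a (SE 1.44) and −0.74 for hoxc8a (SE 1.64). The direction rested on 1 library. Without mutant bud replicate 2 the difference was −0.29 for hoxc6b, −0.77 for hoxb3a, −2.03 for hoxc3a, −1.17 for hoxb1a and −2.29 for hoxb7a. These genes were at 0 in mutant bud replicate 1, so without replicate 2 their difference could not lie above 0. Without mutant bud replicate 1 the difference of hoxc8a was 1.97. It could only be positive there, since replicate 2 lay above both wild type bud libraries. The median difference of all tested genes at bud was −0.51.

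Between stages in wild type, several members were higher in both bud libraries, although none was called. The differences use wild type libraries alone, while their standard errors come from the fit to all 8 libraries. For 13 of the 59 members (22%) both bud libraries lay above both shield libraries, against a background of 14.4% of all 31200 symbols. They were 10 Hox genes (hoxb1b, hoxc3a, hoxa4a, hoxb7a, hoxb8b, hoxc8a, hoxa9b, hoxb9a, hoxb10a and hoxc11b) together with aldh1a2, dhrs3b and raraa. Of these, hoxa9b, hoxb9a and hoxc11b were under FPKM of 1 in both wild type bud libraries. The background holds more symbols that were never detected. In any library 72.9% of members were detected, against 53.2% of all symbols. hoxa13b and hoxd13a lay lower at bud (3.39%, against a background of 4.79%). The log2 difference, bud minus shield, was 3.12 for hoxc8a (SE 1.64), 2.29 for hoxb7a (SE 1.44) and −1.995 for hoxa13b (SE 1.05), each with a limma adjusted p of 1. Over all tested genes the median of this difference was 0.51, and 68.5% of them were higher at bud. In mutant the same separation was found for 2 members, hoxa2b and rarga (3.39%, background 6.83%).

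Between genotypes, 2 of 59 members lay higher in both mutant bud libraries than in both wild type bud libraries, cyp26a1 and rarga (3.39%, background 3.86%), and hoxc11b lay lower (1.69%, background 14.3%). At shield 0 lay higher (background 1.98%), and hoxd13a and cyp26b1 lay lower (3.39%, background 5.93%). No Hox gene was higher in both mutant libraries at either stage. At shield none could be, since all Hox genes were at 0 in mutant shield replicate 1. At bud only the 2 Hox genes above 0 in mutant bud replicate 1 could be.

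Of the 2 genes for retinoic acid synthesis, aldh1a2, whose enzyme makes retinoic acid in the trunk mesoderm, stood at FPKM of 0 and 53.5 in mutant bud and 4.01 and 5.38 in wild type bud, with 0 in both mutant shield libraries and 0 and 0.632 in wild type shield. Like hoxb7a and hoxc8a it was detected in both wild type bud libraries, in no shield library, and in replicate 2 alone of mutant bud. Its log2 difference between bud and shield in wild type was 2.15 (SE 1.60, limma adjusted p = 1). Between mutant and wild type at bud it was 0.38 (SE 1.60). Without mutant bud replicate 2 it was −2.50, and could not be positive, since replicate 1 was at 0. aldh1a3, which acts in the eye and other sites, had a value in wild type bud replicate 1 alone, 1.21.

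dhrs3b, which codes for a reductase that turns retinal back to retinol and so limits retinoic acid, stood at 2.498 and 83.1 in mutant bud, 37.9 and 22.8 in wild type bud, with 0 and 4.06 in mutant shield and 0 and 1.29 in wild type shield. Both wild type bud libraries were above all 4 shield libraries. The stage difference in wild type was 4.33 on the log2 scale (SE 1.76, limma adjusted p = 1), and the genotype difference at bud was −0.83 (SE 1.76), turning to 1.47 without mutant bud replicate 1. That sign was fixed, since mutant bud replicate 2 lay above both wild type bud libraries. The paralogue dhrs3a was seen in mutant bud replicate 2 alone, at 6.14.

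Of the genes for retinoic acid breakdown, cyp26a1, which clears retinoic acid from the anterior neural plate and the tailbud, was with rarab 1 of 2 members detected in all 8 libraries. It stood at 41.7 and 118 in mutant bud, 38.0 and 5.61 in wild type bud, with 10.3 and 83.2 in mutant shield and 31.9 and 140.1 in wild type shield. The mutant bud libraries were above both wild type bud libraries, although mutant replicate 1 exceeded wild type replicate 1 by little. The shield groups overlapped. Mutant minus wild type was 2.15 at bud (SE 1.29, limma adjusted p = 0.959), 0.87 to 3.43 when 1 library was left out, and −1.14 at shield (SE 1.29, adjusted p = 1). The sign at bud could not change there, since the mutant and wild type bud values did not overlap. At shield the difference was 0.31 without mutant shield replicate 1. The interaction of genotype and stage was 3.29 (SE 1.83, adjusted p = 1). In wild type, bud minus shield was −2.08 (SE 1.29, adjusted p = 1).

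cyp26c1, of the hindbrain, stood at 0 and 10.45 in mutant bud, 0.487 and 0.536 in wild type bud, 0 in both mutant shield libraries and 0 and 0.591 in wild type shield. It was thus high in the library where anterior Hox genes were high. cyp26b1 never passed 0.661.

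**Figure D3:**
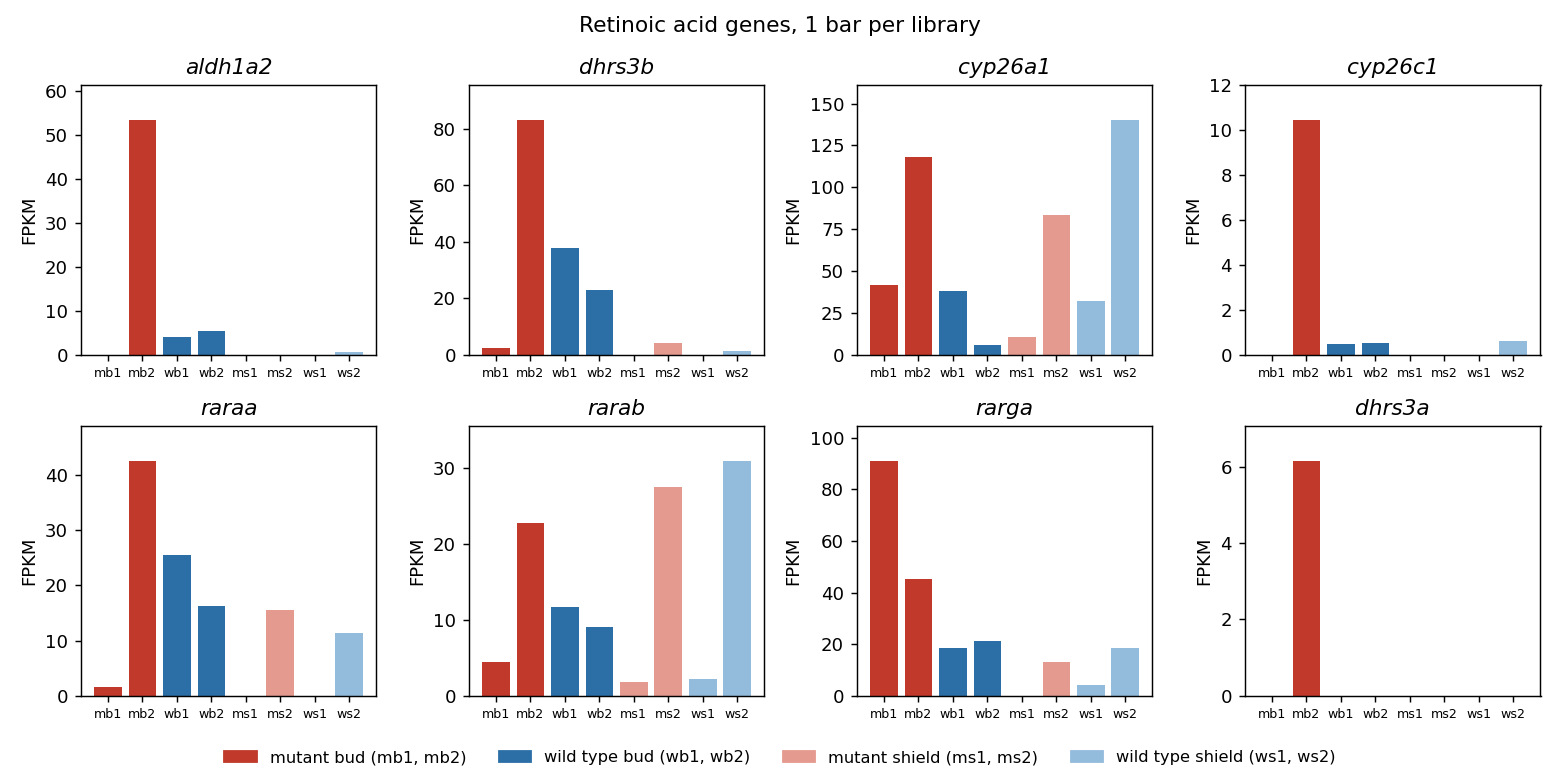
FPKM of 8 retinoic acid genes, 1 bar per library, with its own linear axis for each gene and bars coloured by group. aldh1a2, cyp26c1 and dhrs3a are highest in mutant bud replicate 2 and at 0 in mutant bud replicate 1, while rarga is higher in mutant bud replicate 1 (90.9) than in replicate 2 (45.2).

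Of the 4 receptor genes 3 were detected. rarga, a retinoic acid receptor gamma, stood at 90.9 and 45.2 in mutant bud, 18.5 and 21.4 in wild type bud, with 0 and 13.001 in mutant shield and 4.02 and 18.6 in wild type shield. Of the 20 members that reached FPKM of 10, it was the 1 whose highest bud value was not in mutant bud replicate 2. Mutant minus wild type at bud was 1.64 (SE 1.46, limma adjusted p = 0.959), and 1.145 to 2.14 when 1 library was left out. Its sign could not change there, since both mutant bud values lay above both wild type bud values. At shield the difference was −1.41 (SE 1.46), or 0.50 without mutant shield replicate 1, and the interaction was 3.05 (SE 2.06, adjusted p = 1). Bud minus shield in mutant was 4.12 (SE 1.46, limma adjusted p = 0.681). It was 2.22 to 6.03 when 1 library was left out, lowest without mutant shield replicate 1. Here too the sign could not change, since the bud and shield values in mutant did not overlap.

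raraa, a receptor alpha, stood at 1.54 and 42.4 in mutant bud, 25.5 and 16.3 in wild type bud, with 0 and 15.5 in mutant shield and 0 and 11.4 in wild type shield. Its genotype difference at bud was −1.03 (SE 1.90), or 1.02 without mutant bud replicate 1, and bud minus shield in wild type was 2.60 (SE 1.90, limma adjusted p = 1). Without mutant bud replicate 1 a positive sign was fixed, since replicate 2 lay above both wild type bud libraries. rarab, the other receptor alpha, stood at 4.39 and 22.8 in mutant bud, 11.6 and 9.12 in wild type bud, with 1.84 and 27.4 in mutant shield and 2.28 and 30.8 in wild type shield. In each group but wild type bud, rarab was lower in the library that detected fewer genes, and the genotypes overlapped at both stages. rargb was at 0 in all libraries.

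Other genes of the retinoic acid pathway and regulators of Hox genes were taken from lists, and the genes named are among the 4 with the highest mean FPKM in each. Of the retinoid supply and binding genes 11 of 18 were tested, of the partners and co-regulators of the receptors 14 of 14, of the Hox cofactors and regulators 18 of 29 and of the Polycomb and Trithorax genes 24 of 28. None of these passed the test (0 in either direction) in any of the 6 comparisons. At bud, mutant minus wild type, 8 of 11 supply and binding genes had a difference above 0, with a median of 0.56 against −0.51 for all tested genes. For the receptor partners the count was 7 of 14 (median 0.02), for Hox cofactors 8 of 18 (−0.04) and for Polycomb and Trithorax genes 11 of 24 (−0.16).

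Among the supply genes, rdh10b, whose enzyme makes retinal from retinol, stood at 44.5 and 78.0 in mutant bud, 18.2 and 26.6 in wild type bud, with 14.7 and 88.4 in mutant shield and 31.5 and 62.5 in wild type shield. lratb.1, of a family that stores retinol as esters, stood at 96.1 and 64.9 in mutant bud, 41.2 and 20.2 in wild type bud, with 27.4 and 68.2 in mutant shield and 72.6 and 57.9 in wild type shield. Both were higher in the mutant bud libraries than in the wild type bud libraries, without a call. Of the 11 tested genes of this list 2 lay higher in this way and 1 lower. Over all 13984 tested genes 1145 lay higher and 4033 lower. crabp2b, which codes for a retinoic acid binding protein, followed the Hox pattern with 0 and 51.1 in mutant bud, 7.08 and 2.87 in wild type bud, with 0 and 2.27 in mutant shield and 0 and 1.96 in wild type shield.

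Among the receptor partners, rxrba, a retinoid X receptor, stood at 24.7 and 36.6 in mutant bud and 19.6 and 33.4 in wild type bud. ncor1, a corepressor, stood at 27.6 and 36.6 in mutant bud and 30.3 and 44.1 in wild type bud. rxrba and ncor1 were thus detected in every bud library, including the one in which Hox genes were nearly absent. Of the 14 genes of this list, 6 and 12 were detected in mutant bud and 10 and 13 in wild type bud. nrip1b, another co-regulator, stood at 0 and 79.5 in mutant bud and 4.42 and 13.05 in wild type bud, and the coactivator gene ncoa3 at 3.30 and 12.1 in mutant bud and 4.28 and 7.86 in wild type bud.

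Of the 28 regulators and cofactors of Hox genes in the table, 6 and 17 were detected in mutant bud and 12 and 17 in wild type bud, and 21 were at 0 in mutant bud replicate 1. The 4 with the highest mean were detected in all 4 bud libraries. cdx4, a homeobox gene that activates trunk and tail Hox genes, stood at 68.8 and 336 in mutant bud, 188 and 338 in wild type bud, with 0 and 166 in mutant shield and 51.2 and 75.1 in wild type shield. Its level in mutant bud replicate 2 was that of wild type bud replicate 2, unlike that of the Hox genes. meis3, a cofactor in the hindbrain, stood at 56.1 and 110.0 in mutant bud and 16.0 and 14.9 in wild type bud, with 0 and 5.01 in mutant shield and 0 and 0.376 in wild type shield. For meis3 both mutant bud libraries were above both wild type bud libraries. Of the 18 tested genes of this list 1 lay higher in this way and 2 lower. pbx4, the main early Pbx cofactor, stood at 41.4 and 154 in mutant bud and 43.3 and 102 in wild type bud, and eve1, a posterior regulator, at 37.2 and 45.9 in mutant bud and 50.4 and 27.9 in wild type bud, with 37.2 and 379 in mutant shield and 184 and 212 in wild type shield. Of the 27 Polycomb and Trithorax genes in the table, whose products keep Hox genes silent or active, 19 and 23 were detected in mutant bud and 23 and 22 in wild type bud. The chromatin-binding subunit gene cbx2 stood at 174 and 135 in mutant bud and 313 and 368 in wild type bud, rnf2 at 80.8 and 102 in mutant bud and 145 and 119.5 in wild type bud, and eed at 62.1 and 103 in mutant bud and 65.2 and 61.2 in wild type bud. wdr5, shared by Trithorax-type complexes, stood at 96.3 and 146 in mutant bud and 199.8 and 194 in wild type bud.

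Markers of somatic cells were also high in mutant bud replicate 2. In mutant bud replicate 1 the neural plate, forebrain and midbrain, and enveloping layer sums also lay above both wild type bud libraries. So did its paraxial and axial mesoderm sums, given below. Its Hox sum did not. The 14 neural plate genes summed to 132 and 1105 FPKM in mutant bud and 69.9 and 31.9 in wild type bud, and all 14 were detected in replicate 2, against 7 in replicate 1. The 13 forebrain and midbrain genes, which lie anterior to the Hox domains, summed to 96.7 and 663 in mutant bud and 17.2 and 33.9 in wild type bud. The 10 enveloping layer genes summed to 61.6 and 988 in mutant bud and 54.0 and 18.5 in wild type bud. At shield they summed to 547 and 19.6 in mutant and 49.6 and 46.2 in wild type. They were thus also high in mutant shield replicate 1, where the Hox sum was 0. Detected were 4 and 10 of the forebrain and midbrain genes and 4 and 8 of the enveloping layer genes in mutant bud. In wild type bud these counts were 4 and 6, and 7 and 6, with 9 and 7 of the neural plate genes. Genes used outside the Hox domains were thus high in mutant bud replicate 2 too. Of the forebrain and midbrain list, six3b was higher in mutant bud replicate 1 (73.5) than in replicate 2 (54.5).

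The mesodermal lists differed from each other. The 16 paraxial mesoderm and tailbud genes summed to 452 and 757 in mutant bud and 108 and 163 in wild type bud. Of these genes 9 and 2 were at 0 in mutant bud and 8 and 6 in wild type bud. In mutant bud 7 and 14 of them were detected, and in wild type bud 8 and 9. her7, an oscillating gene of the segmentation clock, stood at 253 and 94.2 in mutant bud and 2.89 and 11.3 in wild type bud. tbx16, a T-box gene of early mesoderm, stood at 118 and 44.6 in mutant bud and 68.6 and 88.4 in wild type bud. Of this list only her7, tbx16 and her1 were higher in mutant bud replicate 1 than in replicate 2. The 11 axial mesoderm genes summed to 45.9 and 578 in mutant bud and 31.3 and 30.1 in wild type bud. Of these 9 and 0 were at 0 in mutant bud and 6 and 6 in wild type bud. noto, a notochord gene, stood at 0 and 109 in mutant bud and at 0 in both wild type bud libraries, and tbxta, which is in both mesodermal lists, at 31.02 and 131 in mutant bud and 16.1 and 22.6 in wild type bud. The 10 epidermis genes summed to 32.3 and 158 in mutant bud and 254 and 203 in wild type bud. Of the 8 tested, 2 had a difference above 0 and 6 below 0, and 0 were called by limma (1 at an unadjusted p under 0.05). At shield, where Hox values were low, the paraxial list summed to 104 and 777 in mutant and 250.0 and 757 in wild type, and the axial list to 18.9 and 293 in mutant and 225 and 527 in wild type. The 9 endoderm and hatching gland genes summed to 146 and 1018 in mutant bud and 636 and 662 in wild type bud. ctsla alone stood at 135 and 285 in mutant bud and 611 and 657 in wild type bud. Of the 9 genes, 2 and 9 were detected in mutant bud and 4 and 3 in wild type bud. The 10 lateral mesoderm genes summed to 3.20 and 25.7 in mutant bud and 10.0 and 42.8 in wild type bud. The 8 yolk syncytial genes summed to 719 and 1626 in mutant bud and 857 and 581 in wild type bud. Most of that was apoeb, at 630 and 1597 in mutant bud and 828 and 576 in wild type bud. The part of somatic cell RNA in the Hox values was not tested.

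**Figure D4:**
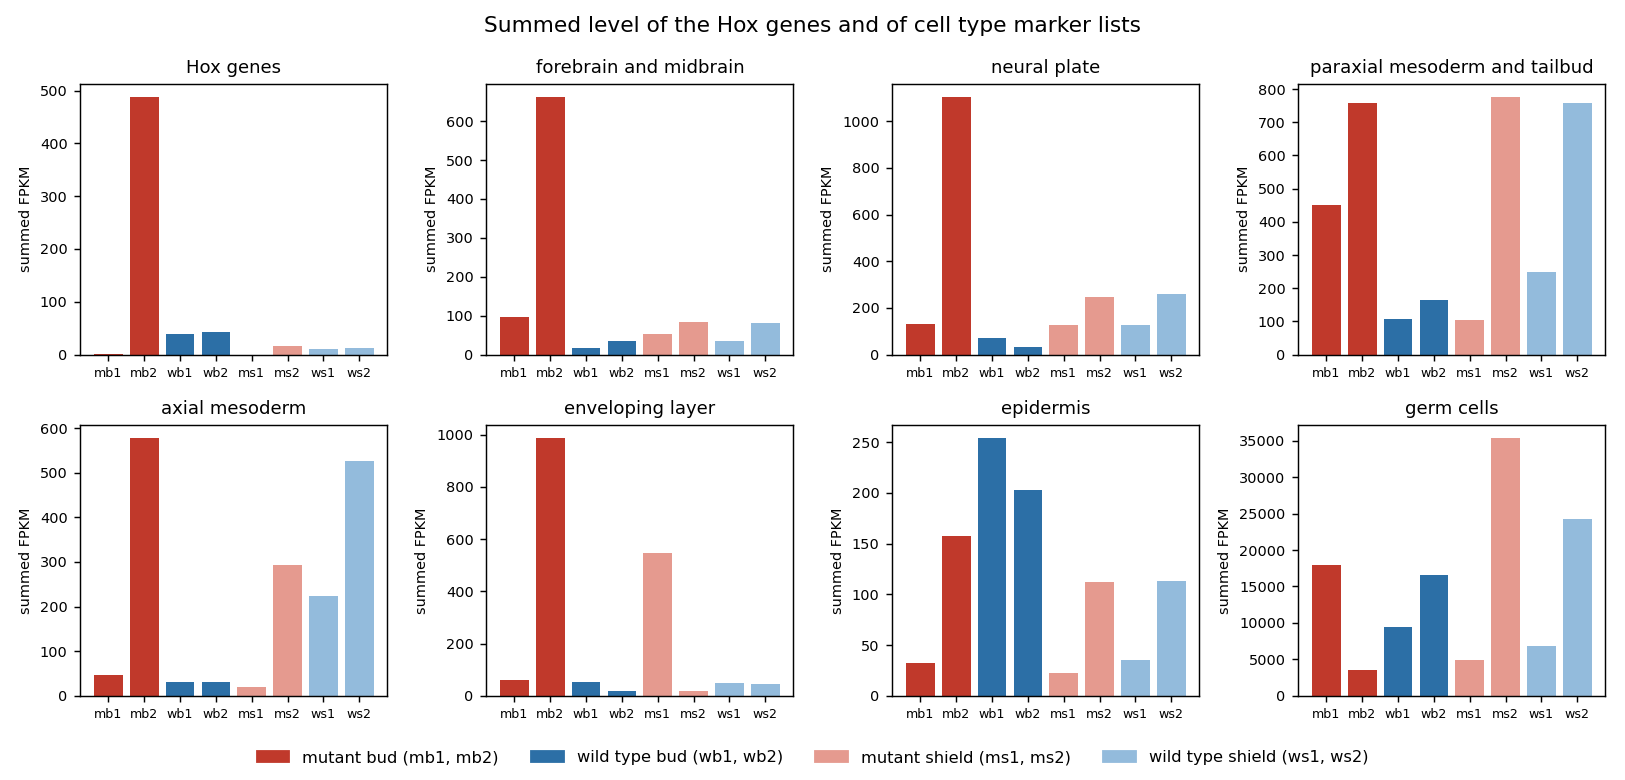
Summed FPKM of the 48 Hox genes and of 7 marker lists, 1 bar per library, with its own linear axis for each list and bars coloured by group. In mutant bud replicate 2 the Hox, forebrain and midbrain, neural plate, axial mesoderm and enveloping layer sums are the highest of the 8 libraries and the germ cell sum (3596) is the lowest.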

How the data were processed

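Expression was measured by SMART-seq2 in 8 libraries of pooled PGCs, 2 in each of 4 groups taken from the sample titles. The authors deposited FPKM, 1 column per library. Cufflinks 2.2.1, STAR 2.5.3a, Trim Galore and, as the build, danRer11 are listed, per the submitters' processing notes. The annotation, strand setting and treatment of reads with several alignments are not given in the sources used here. Depth is unknown, so no counting interval is given. Of 31934 entries, 2 with missing values were left out, and for the 545 symbols with several entries the one with the highest mean was kept. Each of the 59 members had 1 entry, and values under 0.005 were taken as 0. Members matched the symbol rule for Hox, cyp26, aldh1a2 and aldh1a3, rar and dhrs3 genes. All were accounted for, and those reaching FPKM of 10 in any library are given for every library. From each list of other pathway genes the 4 with the highest mean were named, except 1 gene that is not reported here. Marker lists are given by sums and counts. The genes named from them were chosen after their values were seen, from the 4 highest of their lists. limma 3.58.1 (R 4.3.3), with a trend and a pseudocount of 1, fitted 4 group means to the 13984 genes that reached FPKM of 1 in 2 or more libraries (4 residual degrees of freedom, 15.4 after moderation). The fit was tested on simulated data with a spread and a shift set in advance. That spread was not taken from these libraries, so this check does not show which differences these data could reveal. Alternatives changed the pseudocount, filter, scaling, moderation, weights, merging of entries, the replicate block and the libraries. A planned search of promoters for retinoic acid response elements was not run. Figures used Python 3.11.15 and matplotlib 3.10.9. The members and lists were chosen with earlier results of these data known.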

Additional observations from a re-analysis of the deposited data

How the results depend on the processing

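No member was called under any of the 22 alternatives in the comparisons each was run for. The members tested differed with the filter. Where FPKM of at least 1 was required in all libraries, only cyp26a1 and rarab remained, so no other member could be called. Fitting only the groups compared was run for 4 of the 6, since the other two use all groups. Over all genes, calls of genotype over both stages went from 0 to 1 with the filter at FPKM of 5, robust moderation, array weights or the replicate block. For bud minus shield in mutant they were 3 with that filter, 8 with median-of-ratios scaling, 7 after quantile normalization, 6 with robust moderation, 5 with the replicate block, and 0 to 146 when 1 library was left out, 146 being without mutant shield replicate 2. The interaction had 1 call with the replicate block. Replicate differences correlated between groups at −0.01 to 0.33, highest between the shield groups, and the numbers were not taken to pair samples. In every group, however, replicate 1 detected fewer genes than replicate 2 and had the higher mitochondrial share. Its Hox sum was also the lower one in every group. Whether the replicates with the same number were processed together is not stated.

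Genotype differences at bud changed sign in several settings. With a pseudocount of 0.1 they were −1.03 for hoxb7a and −1.04 for aldh1a2, against 0.35 and 0.38. That of hoxc8a was 0.033 with a pseudocount of 5 and 0.39 after quantile normalization, against −0.74. Leaving out 1 library gave −1.17 to 3.73 for hoxb1a, −0.77 to 4.41 for hoxb3a, −2.03 to 4.76 for hoxc3a, −0.29 to 5.32 for hoxc6b, −2.29 to 2.98 for hoxb7a, −3.46 to 1.97 for hoxc8a, −2.50 to 3.27 for aldh1a2, −3.12 to 1.47 for dhrs3b and −3.08 to 1.02 for raraa, with the lowest values without mutant bud replicate 2 and the highest without replicate 1. For each of these genes mutant bud replicate 1 lay at or below both wild type bud libraries, and replicate 2 above both. The sign with either mutant bud library left out was thus fixed. At shield, leaving out 1 library gave −2.59 to 0.31 for cyp26a1 and −3.31 to 0.50 for rarga. With mutant bud replicate 2 and mutant shield replicate 1 both left out, the values were −1.17, −0.77, −2.03, −0.29, −2.29 and −2.50 for hoxb1a, hoxb3a, hoxc3a, hoxc6b, hoxb7a and aldh1a2 at bud, and 0.31 and 0.50 for cyp26a1 and rarga at shield. The stage differences in wild type kept their sign in all these settings. For hoxb7a, hoxc8a, hoxa13b, aldh1a2, dhrs3b and raraa leaving out 1 library could not change it. Their wild type bud and shield libraries did not overlap.

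Counted at FPKM of 5, members detected were 2 in mutant bud replicate 1, 7 in each wild type bud library, 1 and 5 in mutant shield and 2 and 4 in wild type shield. At FPKM of 0.1 they were 32 in wild type bud replicate 2 and 19 in wild type shield replicate 2. The Hox sum was 29.3 and 28.6 for wild type bud, with 14.8 and 9.54 for wild type shield, after median-of-ratios scaling. The sum was 33.7 and 31.4 for wild type bud, with 15.6 and 10.4 for wild type shield, with totals taken without mitochondrial entries. Only counts and sums that moved are given, for a sum by more than the SD of its group. In mutant bud, with sums of 1.93 and 489, that SD was so wide that a move could hardly be seen. Unknown depth limits every value at 0.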

Other observations

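Across the 48 Hox genes, the level in mutant bud replicate 2 had a Spearman rho of 0.49 with wild type bud replicate 1 and 0.67 with replicate 2, as a description over genes that share a library and often a cluster. The 2 wild type bud libraries had a rho of 0.35 with each other. Only 14 and 24 of the 48 Hox genes were above 0 there, so many ranks were ties. On log2(FPKM + 1) the Pearson r of the 2 wild type bud libraries was 0.45 over the Hox genes. Over all 13984 tested genes it was 0.90, and 0.64 for the 2 mutant bud libraries. Of the 9 Hox genes detected in wild type bud replicate 1, all 9 (31.0% of the 29 in mutant bud replicate 2) were also detected in mutant bud replicate 2, as were 10 of the 11 in wild type bud replicate 2 (90.9%, or 34.5% of the 29). The exception was hoxb13a. The same shares over all genes are not given here, so this overlap cannot be set against a background. The wild type bud libraries shared 4 (hoxc3a, hoxb7a, hoxc8a and hoxb10a), or 44.4% and 36.4% of their lists.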
